A study of Mus musculus with 24 samples.

Results

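The 10 genes described here encode proteins of the outer dense fibers and the fibrous sheath of the mouse sperm tail, and were followed by RNA sequencing in germ cells with and without the Argonaute genes Ago1, Ago3 and Ago4. They were taken as the rows of the deposited count table whose gene identifiers belong to Odf1, Odf2, Odf3, Odf4, Akap3, Fsip1, Fsip2, Ropn1, Ropn1l and Spa17, which is 10 of 55536 genes. The study enriched pachytene and diplotene spermatocytes (meiotic cells) and round spermatids (the haploid cells that follow) from the testes of male mice aged 10 to 15 weeks on a C57BL/6J background, and asked when genes of sperm formation are switched on. Genotypes were Ago413+/+ (wild type), Ago413+/- (1 deleted copy, heterozygous) and Ago413-/- (both copies deleted, null), where the deletion is carried in all cells of the mouse, lies on chromosome 4 and takes out all of Ago1 with portions of Ago3 and Ago4. Each library came from pooled enriched fractions of testis cells of 1 genotype. After leaving out 3 libraries that the labels call outliers, spermatocytes were represented by 4 Ago413+/+, 3 Ago413+/- and 3 Ago413-/- libraries and round spermatids by 3 Ago413+/+, 4 Ago413+/- and 4 Ago413-/- libraries.

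The sperm tail is built on an axoneme, a ring of microtubules that beats. In mammals this core is wrapped by outer dense fibers, stiff cysteine-rich rods that run along the midpiece and principal piece, and over the principal piece by the fibrous sheath, a scaffold of columns and ribs that holds protein kinase A and glycolytic enzymes near the axoneme. Akap3 assembles with Akap4 as a structural protein of the sheath and also anchors the regulatory subunits of protein kinase A, while ropporin (Ropn1), its relative Ropn1l and the sperm autoantigen Spa17 carry a docking domain like that of those subunits and bind the same anchoring proteins. Odf1 is a main structural protein of the fibers, Odf2 is found both in the fibers and at the centriole of many cell types, and Odf3 and Odf4 encode further proteins of the tail. Fsip1 and Fsip2 were named as proteins that interact with the fibrous sheath.

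All 10 genes are protein coding and autosomal. On GRCm38, in the GENCODE release 21 annotation of the mouse, Odf1 (ENSMUSG00000061923) lies at chr15:38219203-38226735 on the plus strand, Odf2 (ENSMUSG00000026790) at chr2:29889221-29931746 on the plus strand, Odf3 (ENSMUSG00000025482) at chr7:140847805-140851018 on the plus strand and Odf4 (ENSMUSG00000032921) at chr11:68921835-68927081 on the minus strand. Akap3 (ENSMUSG00000030344) lies at chr6:126853098-126874308, plus, Fsip1 (ENSMUSG00000027344) at chr2:118130424-118256966, minus, and Fsip2 (ENSMUSG00000075249) at chr2:82943634-83008937, plus. Ropn1 (ENSMUSG00000022832) lies at chr16:34649921-34678618, plus, Ropn1l (ENSMUSG00000022236) at chr15:31441211-31453737, minus, and Spa17 (ENSMUSG00000001948) at chr9:37603290-37613722, minus. Spa17 shares 391 exon bases with Siae on the opposite strand, Fsip1 shares 133 with Gm29232 on the same strand and Odf2 shares 97 with the small nuclear RNA gene Gm23865 on the opposite strand. The strand setting used for counting is not given in the sources used here, so part of the Spa17 count could come from Siae.

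RefSeq (GRCm38.p6) gives promoter sequence for 8 of the 10 genes, all but Odf1 and Fsip1, in 12 windows of 250 bases before a transcript start. The promoters of Odf2 and Akap3 are printed because both genes passed the test as higher in round spermatids in every genotype, and that of Fsip2 because it was lower in all 3 and passed in 2. Odf1 also passed in every genotype but had no promoter sequence to print. The Odf2 window is that of the first of its 4 RefSeq starts and lies inside the annotated gene, which begins at chr2:29889221. All 3 windows are on the plus strand and hold 0 bases annotated as exon. Capitals mark TGACG, the core of the cAMP response element that the spermatid activator CREM recognises, or its reverse complement CGTCA where it lies on the other strand.

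Odf2, chr2:29889470-29889719: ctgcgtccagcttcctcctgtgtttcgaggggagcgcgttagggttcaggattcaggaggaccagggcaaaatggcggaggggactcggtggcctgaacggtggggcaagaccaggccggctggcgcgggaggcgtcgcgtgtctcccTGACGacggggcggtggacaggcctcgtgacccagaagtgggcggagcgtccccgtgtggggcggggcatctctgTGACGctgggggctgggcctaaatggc
Akap3, chr6:126852848-126853097: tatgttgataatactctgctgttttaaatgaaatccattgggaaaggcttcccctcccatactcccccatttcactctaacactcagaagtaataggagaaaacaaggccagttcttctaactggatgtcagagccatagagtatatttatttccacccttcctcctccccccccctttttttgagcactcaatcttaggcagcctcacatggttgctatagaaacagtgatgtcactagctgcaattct
Fsip2, chr2:82943384-82943633: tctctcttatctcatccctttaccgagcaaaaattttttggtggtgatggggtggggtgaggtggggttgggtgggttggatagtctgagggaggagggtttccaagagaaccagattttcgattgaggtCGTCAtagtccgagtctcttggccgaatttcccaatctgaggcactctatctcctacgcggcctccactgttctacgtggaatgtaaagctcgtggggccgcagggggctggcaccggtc

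The Odf2 window held TGACG at 2 places, from 102 to 98 and from 27 to 23 bases before the start, the Fsip2 window held it once on the other strand, and the Akap3 window had no match. Over all 32851 RefSeq promoter windows of this length, 17.8% held TGACG on either strand. The full element TGACGTCA, which contains that core and was held by 1.55% of windows, and the TATA box letters TATAAA, held by 12.4%, matched in none of the windows of these genes. The letters GTTGCC, part of the X-box that RFX factors recognise, were held by 10.4% of all windows and matched once each before Odf3 and Ropn1l. The Odf2 window was 68.4% G and C and the Akap3 window 42.8%, against a median of 52.4% over all windows.

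The total count of these 21 libraries ran from 12825105 to 29749058, and no member had fewer than 624 counts in any of them, so counting error was small beside the differences between pools. Ago1 had 0 counts in all 7 Ago413-/- libraries, which allows up to 3 counts in each, and 32 to 122 counts in the others. Spermatocyte markers did not separate the fractions fully. Of 11 tested markers of 12 listed, Sycp1, Sycp2, Sycp3, Hormad1, Spo11 and Piwil1 were lower in Ago413+/+ round spermatids, and Syce2 and Dmc1 were higher. The summed level of the list was 1456 to 2252 counts per 1000000 counts (CPM) in Ago413+/+ spermatocytes and still 1150 to 1364 CPM in Ago413+/+ round spermatids. In Ago413-/- mice the sums overlapped, at 1110 to 1434 CPM in spermatocytes and 1104 to 1278 CPM in round spermatids. In Ago413+/- mice they also overlapped, at 1121 to 1448 CPM and 1104 to 1228 CPM. The summed 10 round spermatid markers overlapped between the fractions in every genotype. They ran from 923 to 1672 CPM in Ago413+/+ spermatocytes and from 1182 to 1783 CPM in Ago413+/+ round spermatids. In Ago413+/- mice these ranges were 1468 to 2635 CPM and 1553 to 2088 CPM. In Ago413-/- mice they were 1737 to 1981 CPM and 1765 to 2182 CPM. All 8 elongating spermatid markers were higher in Ago413+/+ round spermatids, at a summed 24370 to 34507 CPM against 4133 to 9259 CPM in spermatocytes. Macrophage markers were low but also higher in the round spermatid fraction, where 6 of 10 were called in each genotype and the sum was 34.2 to 78.4 CPM against 12.6 to 32.6 CPM. Sertoli cell markers summed to 81.7 to 441 CPM over all libraries, spermatogonia markers to 39.7 to 103 CPM, and Leydig cell, peritubular myoid and erythrocyte markers to at most 31.0, 10.4 and 10.7 CPM. The part of these markers in the fraction differences below was not tested. In bulk samples of this kind, fewer cells of a type and less RNA per cell cannot be told apart. CPM values were computed after trimmed mean (TMM) scaling of the libraries.

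**Figure D1:**
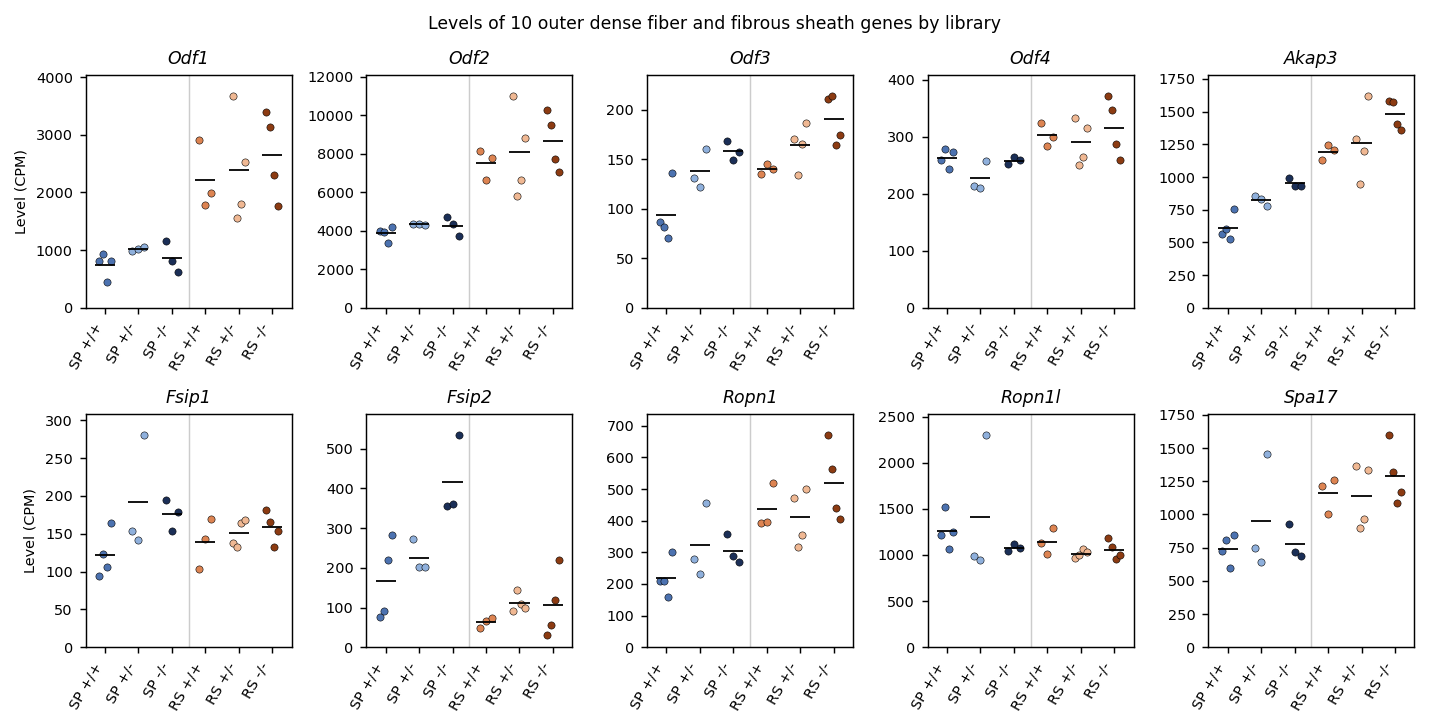
Level of each gene in CPM (vertical axes, linear from 0, a scale for each gene) in each of 21 libraries (points), by cell fraction (SP, spermatocytes, and RS, round spermatids) and Ago413 genotype; horizontal bars are group means. Odf1, Odf2 and Akap3 sit higher in round spermatids in all 3 genotypes, Fsip2 sits lower, and 1 Ago413+/- spermatocyte library stands above the others of its group for Ropn1l, Spa17, Ropn1 and Fsip1.

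To compare genes with each other, levels were divided by exon length and scaled to a sum of 1000000 over all genes in each library (TPM). In Ago413+/+ spermatocytes Ropn1l was the most abundant member, at 3874 ± 498 TPM (SD, n = 4), which placed it 9th among 20404 genes. Spa17 (2057 ± 234 TPM) and Odf1 (1985 ± 513 TPM) followed and did not differ beyond their spread, and then came Odf2 at 1148 ± 67.2 TPM. Odf4 (664 ± 21.6 TPM), Akap3 (572 ± 73.6 TPM) and Ropn1 (478 ± 112 TPM) formed a middle group in which each overlapped the next within 1 SD. Odf3 (133 ± 37.0 TPM) and Fsip1 (123 ± 28.0 TPM) could not be ordered, and Fsip2 was last at 23.4 ± 13.8 TPM. The 7 most abundant members stood at percentile 98.2 or higher among all tested genes in the spermatocyte fraction.

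In Ago413+/+ round spermatids the order changed at the top. Odf1 led with 4608 ± 987 TPM (SD, n = 3), rank 11 of 20404, ahead of Ropn1l (2748 ± 254 TPM) and Spa17 (2513 ± 153 TPM), whose SDs overlapped. Odf2 (1746 ± 65.2 TPM) kept the fourth place, followed by Akap3 (877 ± 101 TPM) and Ropn1 (748 ± 116 TPM), which overlapped, and by Odf4 (599 ± 17.2 TPM). Odf3 was at 157 ± 16.8 TPM, Fsip1 at 110 ± 28.9 TPM and Fsip2 at 6.90 ± 1.61 TPM. TPM divides by the union of annotated exons, which for Odf2 adds up to 9919 bases over 25 transcripts and for Fsip2 to 21147 bases.

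Between the fractions of Ago413+/+ mice, 6 of the 10 genes rose and 1 fell in round spermatids, and 3 did not pass the test. Calls came from edgeR's quasi-likelihood test and needed a change of more than 0.5 on the log2 scale in either direction together with a p below 0.05 after Benjamini-Hochberg adjustment. Over all 20404 genes tested, 12.7% were called higher and 11.4% lower by the same rule. The median log2 fold change of the 10 genes was 0.61, beside 0.02 over all genes.

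Among the outer dense fiber genes, Odf1 had the largest increase. Its levels in the Ago413+/+ spermatocyte libraries (replicates 1, 2, 4 and 5) were 808, 937, 445 and 810 CPM, and in the round spermatid libraries (replicates 1, 2 and 4) 2903, 1785 and 1984 CPM. Every round spermatid library was thus above every spermatocyte library, and the log2 fold change was 1.57 (SE 0.29, adjusted p = 0.00071 by edgeR). Odf2, the fiber and centriole gene, went from 3996, 3941, 3343 and 4212 CPM to 8164, 6658 and 7757 CPM. The Odf2 groups did not overlap either, with a log2 fold change of 0.96 (SE 0.17, adjusted p = 0.00072). Odf3 had 87.0, 81.6, 70.3 and 136 CPM in spermatocytes and 135, 146 and 140 CPM in round spermatids. Its spermatocyte replicate 5 lay within the range of the round spermatids, and the log2 fold change was 0.58 (SE 0.18, adjusted p = 0.018). Odf4 had 259, 279, 243 and 273 CPM in spermatocytes and 324, 285 and 299 CPM in round spermatids, groups that were close but did not overlap. It did not pass the test (log2 fold change 0.20, SE 0.14, adjusted p = 0.29), and on the TPM scale it was lower in round spermatids, at 579 to 609 TPM against 648 to 695 TPM.

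Of the fibrous sheath genes, the anchoring protein gene Akap3 had the smallest p. Akap3 had 566, 605, 530 and 753 CPM in Ago413+/+ spermatocytes and 1130, 1245 and 1205 CPM in round spermatids, without overlap, and a log2 fold change of 0.96 (SE 0.15, adjusted p = 0.00045). Ropn1 had 209, 210, 158 and 300 CPM in spermatocytes and 392, 395 and 519 CPM in round spermatids. The groups did not overlap, and Ropn1 rose by 0.99 on the log2 scale (SE 0.23, adjusted p = 0.0039). Spa17 had 728, 808, 594 and 845 CPM against 1213, 1007 and 1257 CPM. The Spa17 groups were apart by less, and its log2 fold change was 0.64 (SE 0.23, adjusted p = 0.040).

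Fsip2 went the other way. In Ago413+/+ spermatocytes it had 77.1, 91.5, 220 and 282 CPM, and in round spermatids 48.7, 66.3 and 73.5 CPM. All round spermatid libraries were below all spermatocyte libraries, of which replicates 4 and 5 were well above replicates 1 and 2, and the log2 fold change was -1.42 (SE 0.47, adjusted p = 0.030). With the 3 outlier libraries added the direction turned (0.51), and with the replicate number as a block the call was lost (-0.89, adjusted p = 0.083). Fsip1 had 93.8, 123, 106 and 165 CPM in spermatocytes and 103, 143 and 169 CPM in round spermatids, which overlapped (log2 fold change 0.18, SE 0.22, adjusted p = 0.57). Ropn1l had 1219, 1516, 1061 and 1249 CPM in spermatocytes and 1130, 1006 and 1290 CPM in round spermatids. These groups also overlapped, with a log2 fold change of -0.14 (SE 0.21, adjusted p = 0.66). On the TPM scale, which was not tested, the Ropn1l groups did not overlap, at 3464 to 4599 TPM in spermatocytes and 2583 to 3041 TPM in round spermatids.

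The calls of Odf1, Odf2, Akap3 and Ropn1 held when any 1 library of the pair of groups was left out. Those of Odf3, Fsip2 and Spa17 did not. Odf3 lost its call without round spermatid replicate 2 or 4 or spermatocyte replicate 1, 2 or 4 (adjusted p = 0.064, 0.050, 0.051, 0.055 and 0.075). Fsip2 lost it without round spermatid replicate 1, 2 or 4 or spermatocyte replicate 4 or 5 (adjusted p = 0.11, 0.080, 0.062, 0.083 and 0.090). Spa17 lost it without round spermatid replicate 1, 2 or 4 or spermatocyte replicate 1, 2 or 4 (adjusted p = 0.099, 0.050, 0.12, 0.080, 0.053 and 0.12). With the 3 outlier libraries back in the fit, 0 of the 10 genes and 0 of all genes tested by edgeR were called between Ago413+/+ fractions.

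**Figure D2:**
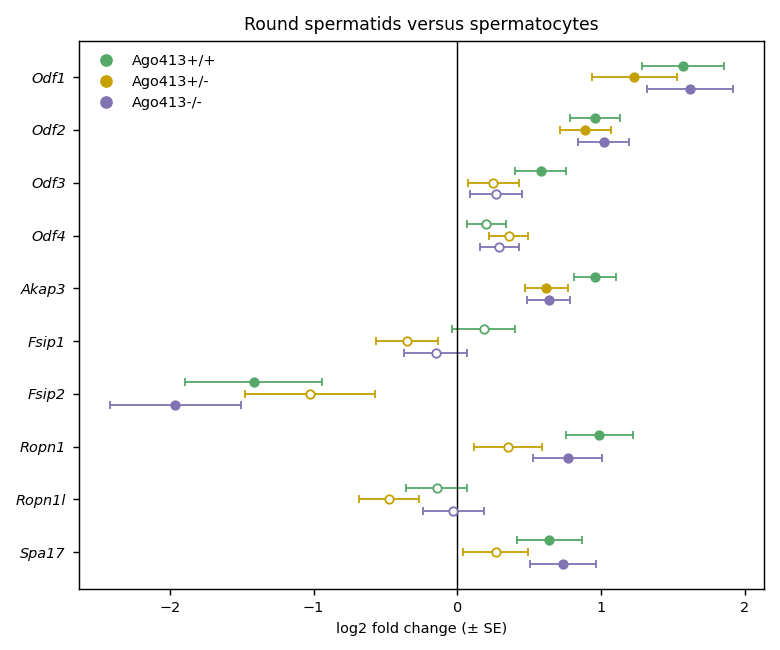
Log2 fold change of round spermatids over spermatocytes (horizontal axis, bars ± SE from edgeR) for each gene in Ago413+/+, Ago413+/- and Ago413-/- mice; filled points passed the call and open points did not. Odf1, Odf2 and Akap3 are filled on the right in all 3 genotypes, and Fsip2 is on the left in all 3 and filled in Ago413+/+ and Ago413-/-.

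The same fraction difference was then taken within the other genotypes. In Ago413-/- mice 5 genes rose and 1 fell, where 11.7% of all genes were called higher and 5.42% lower. Odf1 rose from 1153, 805 and 628 CPM in the spermatocyte libraries (replicates 1 to 3) to 3398, 3133, 2295 and 1766 CPM in the round spermatid libraries (replicates 1 to 4), a log2 fold change of 1.62 (SE 0.30, adjusted p = 0.0012). Odf2 rose from 4729, 4341 and 3739 CPM to 10269, 9491, 7734 and 7069 CPM (log2 fold change 1.02, SE 0.18, adjusted p = 0.0010). Both genes were higher in every round spermatid library than in any spermatocyte library. Akap3 rose from 994, 932 and 930 CPM to 1580, 1573, 1405 and 1359 CPM (log2 fold change 0.64, SE 0.15, adjusted p = 0.0055). On the TPM scale, which was not tested, the Akap3 groups overlapped. They were at 873 to 924 TPM in spermatocytes and 911 to 1081 TPM in round spermatids. Fsip2 fell from 355, 362 and 535 CPM to 32.1, 56.7, 119 and 221 CPM, the widest change of any member in any genotype (log2 fold change -1.96, SE 0.46, adjusted p = 0.0051).

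Ropn1 (0.77, SE 0.24, adjusted p = 0.030) and Spa17 (0.73, SE 0.23, adjusted p = 0.031) also rose on the log2 scale in Ago413-/- mice. These calls were lost without round spermatid replicate 1 or 2 or spermatocyte replicate 2 or 3 (adjusted p = 0.11, 0.072, 0.11 and 0.15 for Ropn1, and 0.10, 0.063, 0.11 and 0.16 for Spa17). Odf3 (0.27), Odf4 (0.29), Fsip1 (-0.15) and Ropn1l (-0.03) did not pass. With the outlier libraries added, which include none of Ago413-/- mice but enter the shared estimate of the spread, Odf1 and Odf2 kept their calls and Akap3, Fsip2, Ropn1 and Spa17 lost them. That fit called 11.1% of all genes between these fractions.

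In Ago413+/- mice 3 genes rose and 0 passed as lower, beside 7.07% of all genes higher and 1.82% lower. Odf1 had 986, 1021 and 1049 CPM in spermatocytes and 3675, 1550, 1805 and 2533 CPM in round spermatids (log2 fold change 1.23, SE 0.30, adjusted p = 0.010). Odf2 had 4362, 4377 and 4322 CPM in spermatocytes and 11008, 5827, 6629 and 8818 CPM in round spermatids (log2 fold change 0.89, SE 0.18, adjusted p = 0.0034). For both genes the spermatocyte libraries lay close together and the round spermatid libraries far apart, with replicates 1 and 4 high and replicates 2 and 3 low. Akap3 had 853, 835 and 779 CPM against 1288, 947, 1198 and 1621 CPM (log2 fold change 0.62, SE 0.15, adjusted p = 0.010). In TPM the Akap3 groups overlapped, at 582 to 857 TPM in spermatocytes and 756 to 1098 TPM in round spermatids. Without round spermatid replicate 1 the Odf1 change was no longer called (adjusted p = 0.052), and without replicate 4 that of Akap3 was not (adjusted p = 0.056). With consecutive library numbers taken as pairs, Akap3 was at 0.47 (adjusted p = 0.10) and not called. With the outlier libraries added 0 of the 10 genes were called by edgeR, as of all genes. Fitted on Ago413+/- libraries alone, Odf1, Odf2 and Akap3 all missed the threshold (adjusted p = 0.053, 0.085 and 0.14).

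Fsip2 had 273, 201 and 203 CPM in Ago413+/- spermatocytes and 90.4, 145, 110 and 98.2 CPM in round spermatids. All round spermatid libraries were below all spermatocyte libraries, but the log2 fold change of -1.03 did not pass (SE 0.45, adjusted p = 0.17). Fsip2 was called lower with no filter on low counts (adjusted p = 0.0038), on Ago413+/- libraries alone (adjusted p = 0.045) and with the replicate number as a block (adjusted p = 0.034).

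Spermatocyte replicate 3 of the Ago413+/- mice stood apart for 4 fibrous sheath genes. Ropn1l had 2299 CPM there, beside 991 and 941 CPM in replicates 1 and 2, Spa17 had 1457 beside 748 and 639 CPM, Ropn1 had 455 beside 279 and 232 CPM, and Fsip1 had 280 beside 154 and 142 CPM. The summed level of 10 round spermatid markers was 2635 CPM in that library and 1632 and 1468 CPM in the others, and its part in the result was not tested. Without it Spa17 was called higher in Ago413+/- round spermatids (log2 fold change 0.69, adjusted p = 0.045), where with it the change was 0.27 (SE 0.23, adjusted p = 0.53). Ropn1l, at -0.47 with all libraries (SE 0.21, adjusted p = 0.17), was at 0.05 without replicate 3 and was called lower, at -0.70, without replicate 2 (adjusted p = 0.034). Odf1, Odf2 and Akap3 showed no such rise in the same library.

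Whether a genotype's effect differed between round spermatids and spermatocytes was tested with an interaction term. For Ago413-/- against Ago413+/+, 0 of the 10 genes and 0% of all genes were called by edgeR, and 0 of the 10 and 5.95% of all genes had an unadjusted p under 0.05. The values ran from -0.54 for Fsip2 (SE 0.64) to 0.11 for Ropn1l (SE 0.30). For Ago413+/- the count was again 0, against 0% of all genes, with 0 members and 7.72% of all genes under an unadjusted p of 0.05, and values from -0.64 for Ropn1 (SE 0.33) to 0.39 for Fsip2 (SE 0.64). DESeq2 called 0 in both. The differences between genotypes in the number of genes called across fractions, 7, 3 and 6, were therefore not shown to be differences in the change itself.

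Other genes of the same structures gave a frame for these values. Of 12 tested outer dense fiber relatives and tektins (13 listed), 5 rose and 1 fell in Ago413+/+ round spermatids, where 12.7% of all genes were called higher and 11.4% lower. Odf3b had the highest log2 fold change (1.95, SE 0.38, adjusted p = 0.0012), followed by Oaz3, the testis antizyme gene (1.79), Spag4 (0.95), Odf3l1 (0.60) and Tekt5 (0.56), and Odf2l, a relative of Odf2, was the gene that fell (-0.68, SE 0.18, adjusted p = 0.0077). The median of the list was 0.39. Of 8 other fibrous sheath genes 5 rose and 0 fell, with a median of 0.83. Gapdhs, the sperm glyceraldehyde 3-phosphate dehydrogenase bound to the sheath, had the highest value (1.73, SE 0.28, adjusted p = 0.00048) and is also among the elongating spermatid markers, Akap4, the partner of Akap3, had 1.53 (SE 0.28, adjusted p = 0.00068), and Rhpn1 had the lowest (-0.30, SE 0.15, adjusted p = 0.16).

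Of 6 protein kinase A subunit genes, 2 rose in Ago413+/+ round spermatids. Prkar2a, the type II alpha regulatory subunit that anchoring proteins of the sheath bind, had the highest log2 fold change (1.86, SE 0.38, adjusted p = 0.0014), and Prkar1b rose by 0.72 (SE 0.18, adjusted p = 0.0054). Prkar2b was lowest at -0.34 (SE 0.23, adjusted p = 0.28). Across the Ago413-/- fractions 4 outer dense fiber relatives rose and 1 fell, 5 other sheath genes rose, and of the kinase subunits only Prkar2a did (2.12), beside 11.7% of all genes higher and 5.42% lower. Across the Ago413+/- fractions the counts were 3 higher and 0 lower, 4 and 0, and 1 and 0 for the same lists, beside 7.07% and 1.82% of all genes. Akap4 was at 1.52 in Ago413-/- mice (SE 0.29, adjusted p = 0.0013) and at 1.53 in Ago413+/- mice (SE 0.29, adjusted p = 0.0023), which is close to its value in wild type.

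Loss of the Argonaute genes was next set against wild type within spermatocytes, which bears on whether tail genes are raised early. No member passed edgeR's test there (0 of 10, against 0.0411% of all genes), and 4 of 10 had an unadjusted p under 0.05, as had 30.4% of all genes. Akap3, Odf3 and Fsip2 came closest, at adjusted p = 0.060, 0.062 and 0.062, and all 3 were higher in every Ago413-/- library than in any Ago413+/+ library. Over all genes 28.0% did not overlap between these groups. DESeq2, the study's own tool, called these 3 genes higher, where it called 15.6% of all genes, 9.08% as higher and 6.48% as lower.

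Akap3 had 994, 932 and 930 CPM in Ago413-/- spermatocytes, beside 566, 605, 530 and 753 CPM in Ago413+/+. Its log2 fold change was 0.65 (SE 0.14) by edgeR and 0.68 by DESeq2 (adjusted p = 0.0029). Odf3 had 169, 149 and 157 CPM beside 87.0, 81.6, 70.3 and 136 CPM, with 0.77 (SE 0.21) by edgeR and 0.80 by DESeq2 (adjusted p = 0.015). In both genes wild-type replicate 5 was the nearest to the Ago413-/- libraries. Fsip2 had 355, 362 and 535 CPM beside 77.1, 91.5, 220 and 282 CPM, with 1.33 (SE 0.37) by edgeR and 1.36 by DESeq2 (adjusted p = 0.012). Fsip2 thus differed from Akap3 and Odf3 in that it was higher in Ago413-/- spermatocytes while it fell between the fractions.

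The other members differed by less. Fsip1 had 195, 154 and 178 CPM in Ago413-/- spermatocytes (log2 fold change 0.54, SE 0.25, adjusted p = 0.16), and Ropn1 had 358, 288 and 270 CPM (0.49, SE 0.25, adjusted p = 0.19). Odf1 (0.22, SE 0.25) had 1 Ago413-/- library above the range of wild type and Odf2 (0.16, SE 0.13) had 2, with the others inside it. Spa17 (0.08, SE 0.25), Odf4 (-0.01, SE 0.13) and Ropn1l (-0.21, SE 0.26) completed the list. The median of the 10 genes was 0.36, beside -0.03 over all genes.

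Several alternatives moved these genes past the threshold. Without wild-type spermatocyte replicate 5 edgeR called 4 members, Odf3 (1.02, adjusted p = 0.0035), Akap3 (0.78, adjusted p = 0.0040), Fsip2 (1.73, adjusted p = 0.0070) and Fsip1 (0.74, adjusted p = 0.046). It then called 23.6% of all genes, 13.9% as higher and 9.71% as lower. When both fractions shared 1 fit, Akap3, Odf3 and Fsip2 were called (adjusted p = 0.010, 0.010 and 0.042), against 19.6% of all genes. The same 3 were called with the replicate number as a block, where Fsip2 was at 2.24, and 3.53% of all genes. So they were with only the 2 genotypes compared and with no filter on low counts, against 6.93% and 7.61% of all genes. The labels number the libraries, and wild-type replicate 5 and Ago413-/- replicates 2 and 3 are those numbered above 60. With a term for numbers above 60 edgeR called 0 members and 0.0206% of all genes. The log2 fold changes were then 0.59 for Akap3, 0.68 for Odf3 and 1.11 for Fsip2 (adjusted p = 0.16, 0.17 and 0.17). Round spermatid markers moved with the genotype in these libraries. Their summed level over 10 genes was 923, 1043, 927 and 1672 CPM in the wild-type libraries, replicate 5 being the highest, and 1737 to 1981 CPM in the Ago413-/- libraries, and all 10 markers had a positive log2 fold change (median 0.71, 0 called by edgeR). The summed level of 11 spermatocyte markers was 1456 to 2252 CPM in wild type and 1110 to 1434 CPM in Ago413-/-. For the 8 elongating spermatid markers 7 were positive (median 0.27), with sums of 4133 to 9259 CPM in wild type and 4696 to 13820 CPM in Ago413-/-. The part of these markers in the result was not tested.

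**Figure D3:**
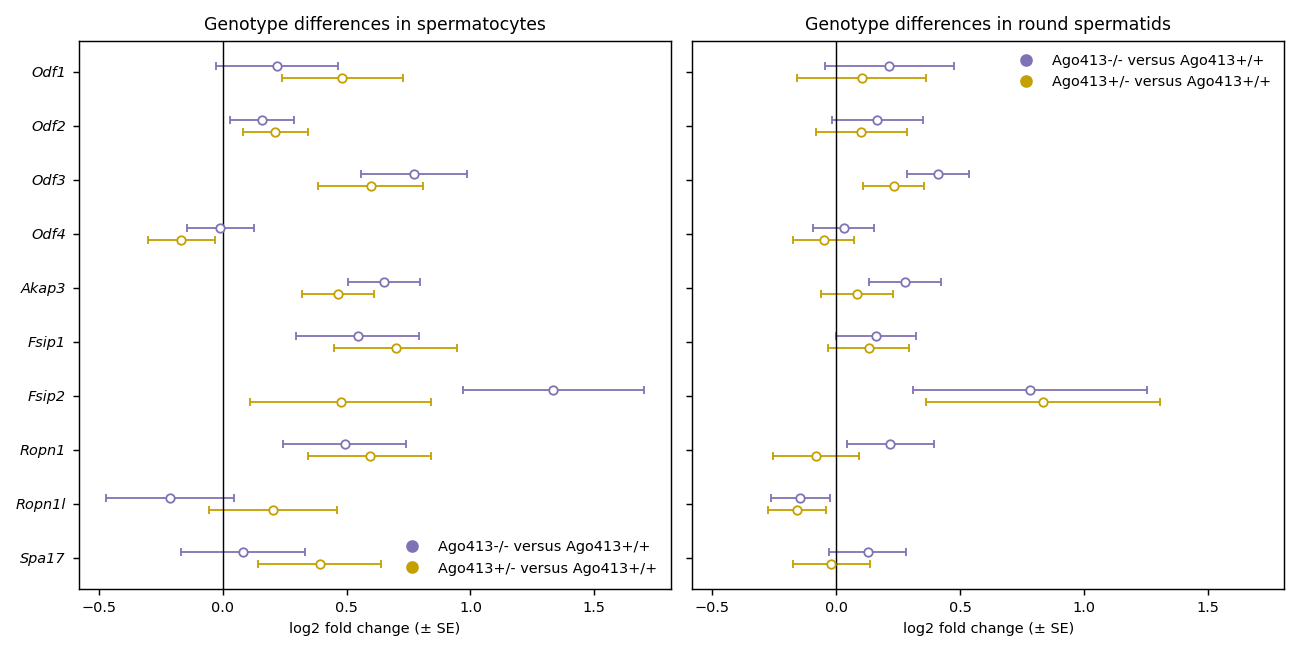
Log2 fold change of Ago413-/- and of Ago413+/- over Ago413+/+ (horizontal axis, bars ± SE from edgeR) in spermatocytes (left) and round spermatids (right); all points are open because no member passed the call. In spermatocytes Fsip2, Odf3 and Akap3 have the largest Ago413-/- values (1.33, 0.77 and 0.65), and in round spermatids their values are 0.78, 0.41 and 0.28.

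In Ago413+/- spermatocytes no member passed either (0 of 10 by edgeR and by DESeq2), beside 0.0257% of all genes by edgeR and 6.31% by DESeq2. An unadjusted p under 0.05 was found for 4 of the 10 and for 24.6% of all genes. Values were positive for 9 of the 10, with a median of 0.47 beside 0.07 over all genes. In CPM, Odf1, Odf2 and Akap3 were higher in every Ago413+/- library than in any wild-type one. Over all genes 17.6% did not overlap between these groups. In TPM, which was not tested, all 3 genes overlapped. The Ago413+/- and wild-type ranges were 2236 to 2989 and 1258 to 2462 TPM for Odf1. For Odf2 they were 1026 to 1428 and 1053 to 1208 TPM, and for Akap3 582 to 857 and 525 to 680 TPM. The log2 fold changes were 0.48 for Odf1 (SE 0.24, adjusted p = 0.24), 0.21 for Odf2 (SE 0.13, adjusted p = 0.32) and 0.47 for Akap3 (SE 0.14, adjusted p = 0.13). Odf3 had 132, 122 and 161 CPM (0.60, SE 0.21, adjusted p = 0.14), and Fsip1 (0.70, SE 0.25, adjusted p = 0.14) and Ropn1 (0.59, SE 0.25, adjusted p = 0.17) were at 0.32 and 0.26 without replicate 3. Fsip2 had 273, 201 and 203 CPM (0.48, SE 0.37), Spa17 was at 0.39 (SE 0.25), Ropn1l at 0.20 (SE 0.26) and Odf4 at -0.17 (SE 0.14). Without Ago413+/- replicate 3, Spa17 turned to -0.063 and Ropn1l to -0.35.

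Without wild-type replicate 5 edgeR called Odf3 (0.85, adjusted p = 0.017), Akap3 (0.59, adjusted p = 0.021), Fsip1 (0.89, adjusted p = 0.034) and Ropn1 (0.79, adjusted p = 0.046) higher in Ago413+/- spermatocytes. It then called 15.5% of all genes, 10.8% as higher and 4.66% as lower. With both fractions in 1 fit, 1 of the 10, Odf3, was called (adjusted p = 0.046), as were 10.5% of all genes. The summed round spermatid markers were 1468 to 2635 CPM in the Ago413+/- libraries, and all 10 had a positive log2 fold change (median 0.73). Spermatocyte markers summed to 1121 to 1448 CPM, below the 1456 to 2252 CPM of wild type, and spermatogonia markers to 69.0 to 91.8 CPM, above the 39.7 to 50.4 CPM of wild type, with Stra8, a gene of cells entering meiosis, the one of 8 called (log2 fold change 2.08, adjusted p = 0.011). Leydig cell markers summed to 9.12 to 31.0 CPM, beside 3.83 to 14.9 CPM in wild type. The part of these markers in the result was not tested. The comparisons of Ago413-/- and of Ago413+/- with wild type share the wild-type libraries. Between Ago413-/- and Ago413+/- spermatocytes, 0 members were called by edgeR or DESeq2 (0.00514% of all genes by edgeR), and 1 member and 3.74% of all genes had an unadjusted p under 0.05, with values from -0.42 for Ropn1l to 0.86 for Fsip2.

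In round spermatids the genotype differences were smaller than the spread between pools for most members. For Ago413-/- against Ago413+/+ edgeR called 0 of 10 and 0.0518% of all genes, and DESeq2 called 0 of 10 and 3.64% of all genes. An unadjusted p under 0.05 was found for 1 of the 10 and for 19.3% of all genes. Odf3 had 211, 214, 165 and 174 CPM in Ago413-/- and 135, 146 and 140 CPM in Ago413+/+. Its groups did not overlap and its log2 fold change was 0.41 (SE 0.12, adjusted p = 0.11), while DESeq2 gave an adjusted p of 0.030 but a change under the 0.5 needed for a call. Akap3 had 1580, 1573, 1405 and 1359 CPM beside 1130, 1245 and 1205 CPM, also without overlap (0.28, SE 0.15, adjusted p = 0.31). These 2 genes were those without overlap in CPM among the 10, where 19.4% of all genes had none. In TPM the Akap3 groups overlapped, at 911 to 1081 TPM in Ago413-/- and 784 to 985 TPM in Ago413+/+.

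Fsip2 was the least even member in Ago413-/- round spermatids. Replicates 1 and 2 had 32.1 and 56.7 CPM, replicates 3 and 4 had 119 and 221 CPM, and the wild-type libraries had 48.7 to 73.5 CPM (log2 fold change 0.78, SE 0.47, adjusted p = 0.38). The value was 0.10 without Ago413-/- replicate 4 and -1.16 with the outlier libraries added. In CPM, replicates 1 and 2 were the lower pair for Fsip2 and the higher pair for each of the other 9 members. In TPM they were again the lower pair for Fsip2 and the higher pair for Odf1, Odf2 and Ropn1, but the lower pair for Akap3 and Ropn1l and neither for Odf3, Odf4, Fsip1 and Spa17. The summed elongating spermatid markers were 49281 and 39312 CPM in replicates 1 and 2 and 29650 and 25617 CPM in replicates 3 and 4, and their part in the result was not tested. Odf1 (0.21, SE 0.26), Odf2 (0.16, SE 0.18), Ropn1 (0.22, SE 0.17), Fsip1 (0.16, SE 0.16), Spa17 (0.13, SE 0.16) and Odf4 (0.03, SE 0.12) had positive values and Ropn1l a negative one (-0.15, SE 0.12), none of them called.

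In Ago413+/- round spermatids edgeR and DESeq2 each called 0 of 10, where edgeR called 0.0207% of all genes. At an unadjusted p under 0.05 there were 0 of the 10 and 8.88% of all genes. Fsip2 had 90.4, 145, 110 and 98.2 CPM and did not overlap with wild type, as was the case for 9.81% of all genes (log2 fold change 0.83, SE 0.47, adjusted p = 0.60). With the outlier libraries added, the Fsip2 value turned to -1.13. The other 9 members lay between -0.16 (Ropn1l) and 0.23 (Odf3). Replicates 1 and 4, which were the higher ones for Odf1 and Odf2, had summed elongating spermatid markers of 46415 and 34693 CPM, beside 19073 and 18983 CPM in replicates 2 and 3. Between Ago413-/- and Ago413+/- round spermatids 0 members were called by edgeR or DESeq2 (0.00518% of all genes by edgeR), and 0 members and 7.67% of all genes had an unadjusted p under 0.05, with values from -0.06 for Fsip2 to 0.30 for Ropn1.

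**Figure D4:**
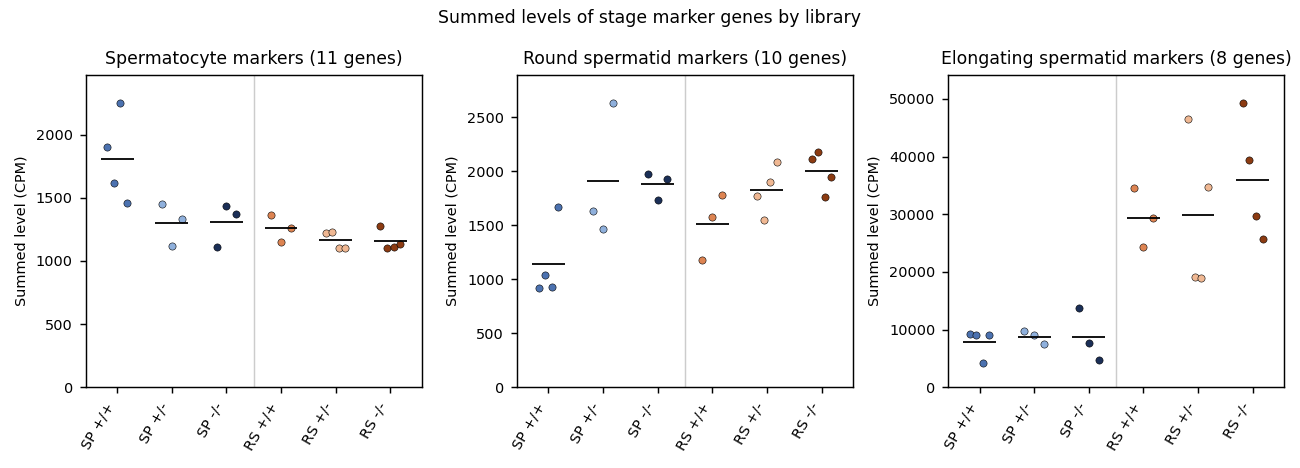
Summed level in CPM (vertical axes, linear from 0) of 11 spermatocyte, 10 round spermatid and 8 elongating spermatid marker genes in each of 21 libraries (points), by cell fraction (SP, spermatocytes, and RS, round spermatids) and Ago413 genotype; horizontal bars are group means. Ago413+/+ spermatocyte libraries have the highest spermatocyte sums, 3 of those 4 have the lowest round spermatid sums (923 to 1043 CPM), and elongating spermatid sums vary widely among round spermatid libraries.

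The related lists gave 0 calls by edgeR between genotypes in either fraction. In Ago413-/- spermatocytes the 12 outer dense fiber relatives had a median log2 fold change of 0.16, from Spag5 (-0.19) to Odf3l1 (0.67), the 8 other sheath genes 0.43, from Rhpn1 (-0.53) to Cabyr, a calcium-binding protein of the sheath (0.75), and the 6 kinase subunits 0.00, from Prkar2b (-0.34) to Prkar1b (0.37). At an unadjusted p under 0.05 there were 2, 4 and 0 genes of these lists, beside 30.4% of all genes, and DESeq2 called 1, 3 and 0, beside 15.6% of all genes. In Ago413-/- round spermatids the medians were -0.02 (Spag5 -0.25 to Odf3b 0.37), 0.27 (Rhpn1 -0.45 to Akap4 0.43) and 0.02 (Prkaca -0.31 to Prkacb 0.30). In Ago413+/- spermatocytes they were 0.30 (Spag5 -0.38 to Odf3l1 0.74), 0.36 (Rhpn1 -0.32 to Cabyr 0.70) and 0.19 (Prkaca -0.20 to Prkacb 0.61), and in Ago413+/- round spermatids -0.03 (Ccdc42 -0.16 to Odf3l1 0.19), 0.24 (Rhpn1 -0.12 to Fscb 0.50) and 0.07 (Prkar1a -0.16 to Prkar2b 0.36).

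Across the 21 libraries the members fell into patterns, described here by Pearson's r of log2 CPM. These points share fractions, genotypes and library depth and are given without a test. Odf1 and Odf2 varied most alike (r = 0.98), followed by Ropn1 and Spa17 (0.93), Odf2 and Akap3 (0.89), Akap3 and Ropn1 (0.88) and Odf3 and Akap3 (0.88). Fsip2 was opposed to most members, with r = -0.73 to Odf1 and to Odf4, -0.70 to Odf2 and 0.27 to Fsip1. Ropn1l went its own way, with r between -0.36 (Akap3) and 0.43 (Fsip1).

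**Figure D5:**
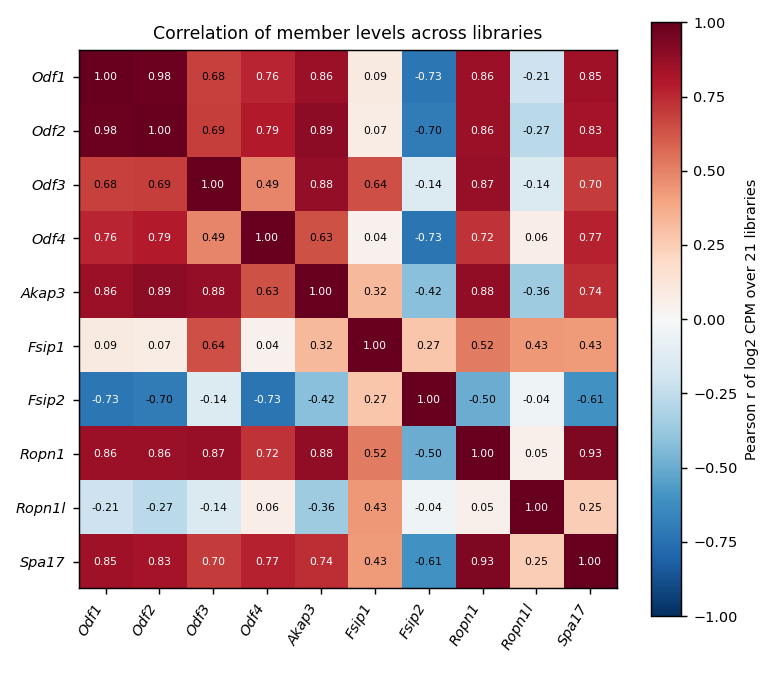
Pearson's r of log2 CPM between each pair of the 10 genes over 21 libraries, colour from blue (negative) to red (positive) with the value printed in each cell. Odf1, Odf2, Akap3, Ropn1 and Spa17 form a block of high values, and the Fsip2 and Ropn1l rows are mostly near or below 0.

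Among 8488 genes with a mean of at least 10 CPM, those most like Odf1 over the 21 libraries were 2810408A11Rik (r = 0.996), 1700009N14Rik (0.995) and Tssk3 (0.994), a testis-specific serine kinase gene. Akap3 was most like Clip4 (0.986), Sh3d21 (0.985) and Dpysl3 (0.983), and Spa17 most like Gm9999 (0.981), Rab5if (0.975) and 4930453N24Rik (0.975). For Fsip2 the nearest genes were Cep290 (0.958), which encodes a protein of the ciliary transition zone, Ccdc7a (0.956) and Tex15 (0.953), a gene needed for meiotic recombination.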

How the data were processed

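Poly(A) RNA from germ cell fractions enriched on a gradient of bovine serum albumin was sequenced by the authors, who trimmed reads with Trim Galore, aligned them to mm10 with STAR and deposited raw read counts per gene for 24 libraries. The processing notes name these tools without versions, and the counting strand is not given in the sources used here. All 55536 gene identifiers were found in GENCODE release 21 of the mouse, from which symbols, positions and exon lengths were taken. Replicates are pools of enriched fractions, and p-values measure the spread between these pools. No columns were identical, and the 37 pairs of libraries within a group differed beyond sampling noise (chi-square per gene of 9.75 or more). The 3 libraries labelled as outliers were left out except where stated.

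Counts were tested with edgeR 4.0.16 (glmQLFit and glmQLFTest, TMM scaling, R 4.3.3) after removing genes that did not reach 10 counts in 3 or more libraries. Fractions were compared in 1 fit of 6 groups, and genotypes within each fraction, as in the study. Calls needed an adjusted p below 0.05 and a log2 change of more than 0.5 either way. SE is the log2 fold change divided by the root of the F statistic. Scripts were tested on simulated data. DESeq2 1.42.0, its size factors in edgeR, no filter, other sample sets, number blocks, a term for library numbers above 60 and leaving out each library were alternatives. Members, gene lists and markers were chosen with earlier results of these data known. All 10 members passed the filter. The text names every member, and for Odf1, Akap3, Fsip2 and Spa17 the 3 genes of highest correlation. Of each related list it names the highest and lowest gene between Ago413+/+ fractions and against Ago413+/+ within fractions. Other genes of the lists that were called between fractions are named only in part.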

Additional observations from a re-analysis of the deposited data

Results flagged for a closer look

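The 3 libraries labelled as outliers entered the comparisons only where the text says that they were added, and some of their values lay above the highest wild-type library of the same fraction when all 24 libraries were scaled together. The spermatocyte library labelled Ago413+/+ replicate 3 had 1373 CPM of Odf1, 5912 CPM of Odf2, 1108 CPM of Akap3 and 323 CPM of Ropn1. The spermatocyte library labelled Ago413+/- replicate 4 had 1347 CPM of Odf1, 6124 CPM of Odf2, 180 CPM of Odf3, 1266 CPM of Akap3, 222 CPM of Fsip1, 482 CPM of Fsip2, 406 CPM of Ropn1 and 1033 CPM of Spa17. The round spermatid library labelled Ago413+/+ replicate 3 had 183 CPM of Fsip1 and 793 CPM of Fsip2, the latter beside 48.7 to 73.5 CPM in the other wild-type round spermatid libraries when scaled without it. In the same library Odf1 was at 739 CPM, Odf2 at 4301 CPM, Ropn1 at 266 CPM and Spa17 at 680 CPM, each below the other wild-type round spermatid libraries. Summed elongating spermatid markers were 16399 and 15987 CPM in these spermatocyte libraries and 6468 CPM in the round spermatid library, where the other wild-type libraries had 4133 to 9259 CPM in spermatocytes and 24370 to 34507 CPM in round spermatids.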

How the results depend on the processing

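The number of the 10 genes called stayed within 1.5 times the value given above in 69 recomputed counts that left out no library and moved by more in 12, and did so in 86 and 5 of those that left out 1. Adding the 3 outlier libraries took the fraction calls from 7 to 0 in Ago413+/+ and from 3 to 0 in Ago413+/- mice (0% of all genes in both). In Ago413-/- mice it took them from 6 to 2, where 11.1% of all genes were called. Fitting Ago413+/- libraries alone gave 1 call, of Fsip2 as lower, in place of those of Odf1, Odf2 and Akap3 (2.69% of all genes). In spermatocytes, Ago413-/- against Ago413+/+ went from 0 to 3 calls under DESeq2, both fractions in 1 fit, no filter on low counts, only the 2 genotypes compared, and the replicate block, where 15.6%, 19.6%, 7.61%, 6.93% and 3.53% of all genes were called. Ago413+/- against Ago413+/+ went from 0 to 1 with both fractions in 1 fit and with no filter (10.5% and 4.30% of all genes), and Ago413-/- against Ago413+/- from 0 to 1 with no filter (0.0871% of all genes). With 1 library left out, the counts ran from 4 to 6 for the fractions of Ago413+/+ mice and from 0 to 4 for Ago413-/- and for Ago413+/- against Ago413+/+ spermatocytes, the 4 in both being without wild-type replicate 5. The cause was not tested.

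Directions changed as follows, on the log2 scale and mostly for values near 0. With the outlier libraries added, Fsip2 was at 0.51 between Ago413+/+ fractions, at -1.16 in Ago413-/- and at -1.13 in Ago413+/- round spermatids against Ago413+/+, and in the last comparison Odf4 was at 0.018, Ropn1 at 0.046 and Spa17 at 0.11. Odf4 in Ago413-/- against Ago413+/+ spermatocytes was at 0.017 under DESeq2 and under its size factors in edgeR, 0.059 with the outlier libraries, 0.014 with no filter and 0.035 with only the 2 genotypes. Spa17 in Ago413+/- against Ago413+/+ round spermatids was at 0.019 with no filter. With 1 library left out, the ranges that crossed 0 were, for round spermatids against spermatocytes, Fsip1 -0.53 to 0.0017 and Ropn1l -0.70 to 0.049 in Ago413+/- and Ropn1l -0.086 to 0.016 in Ago413-/- mice. For Ago413-/- against Ago413+/+ they were Odf1 -0.085 to 0.41, Odf4 -0.024 to 0.022 and Spa17 -0.10 to 0.17 in spermatocytes, and Odf4 -0.038 to 0.088 and Fsip1 -0.016 to 0.32 in round spermatids. For Ago413+/- against Ago413+/+ they were Ropn1l -0.35 to 0.42 and Spa17 -0.063 to 0.61 in spermatocytes, and Odf1 -0.20 to 0.31, Odf2 -0.11 to 0.22, Odf4 -0.14 to 0.00031, Akap3 -0.045 to 0.19, Fsip1 -0.078 to 0.29, Ropn1 -0.18 to 0.057 and Spa17 -0.14 to 0.067 in round spermatids.

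Libraries with the same title number did not deviate together in every pair, with r above 0.1 in 4 of 7 spermatocyte pairs (-0.056 to 0.17), in 0 of 10 round spermatid pairs (-0.24 to 0.087) and in 1 of 6 pairs across fractions of a genotype, so the numbers are not taken to pair them. Libraries of consecutive library number, one of each fraction of a genotype, had r above 0.1 in 8 of 9 pairs (-0.14 to 0.31), and with these as pairs the fraction calls were 7, 2 and 6 in Ago413+/+, Ago413+/- and Ago413-/- mice (24.2%, 5.83% and 15.8% of all genes), Akap3 losing its call in Ago413+/- mice. With the replicate block, which uses the title numbers, Akap3, Odf3 and Fsip2 were called in Ago413-/- spermatocytes (0.74, 0.87 and 2.24), the fraction calls were 6, 4 and 6 in Ago413+/+, Ago413+/- and Ago413-/- mice (30.3%, 8.61% and 18.6% of all genes), and Spa17 was at -0.10 in Ago413-/- and Ropn1l at -0.23 in Ago413+/- against Ago413+/+ spermatocytes and Spa17 at 0.033 in Ago413+/- against Ago413+/+ round spermatids.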
